A study of Mus musculus with 6 samples.

Results

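The VEGF family was followed through 9 genes, named as a list: the ligands Vegfa, Vegfb, Vegfc and Pgf, the receptors Flt1, Kdr and Flt4, and the neuropilins Nrp1 and Nrp2. Each was found by its gene symbol among the 46603 identifiers of the count tables, and all 9 were among the 15828 genes with enough counts to test. RNA came from visceral fat taken in the abdomen of C57/Bl6 mice aged 18 months that received no treatment. Of the 6 libraries, wild-type mice (WT) gave 3 and mice lacking nuclear myosin 1 (NM1 KO) gave the other 3. NM1 is an isoform encoded by Myo1c that works in the nucleus. The sources used here give neither the design of the knockout nor the sex of the mice.

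VEGF ligands are secreted proteins that drive the growth, survival and leakiness of vessels. VEGF-A acts through the tyrosine kinase receptor VEGFR2 (Kdr), and VEGFR1 (Flt1) binds VEGF-A, VEGF-B and PlGF (Pgf) tightly and often acts as a decoy. VEGF-C acts mainly through VEGFR3 (Flt4), the receptor of lymphatic vessels. Neuropilins are co-receptors that bind VEGFs and class 3 semaphorins. In fat, adipocytes are a known source of VEGF-A, and the dense capillary bed carries its receptors.

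Vegfa and Flt1 fell in NM1 KO fat and Vegfc rose. Flt1 was 3.17-fold lower, Vegfa 2.09-fold lower and Vegfc 2.57-fold higher by the fitted fold change. The other 6 members did not pass the test. Calls rest on edgeR's quasi-likelihood fit, with p adjusted over all genes tested and a threshold of 0.05. So 2 of the 9 were called lower, where 1.47% of all tested genes were, and 1 was called higher, where 2.79% were. For 6 of the 9, the 3 libraries of 1 group all lay above the 3 of the other, which held for 29.9% of all tested genes. The median log2 fold change of the 9 was -0.65, against -0.0021 for all tested genes.

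Promoters of the 3 called genes are shown because their levels moved in opposite directions. Each run is the 250 bases before the start site in RefSeq on GRCm38.p6, written 5′ to 3′ on the gene's strand. Capitals mark a GC box (GGGCGG, which Sp1-type factors can bind) or the core of a hypoxia response element (ACGTG or GCGTG), each searched on both strands, so that CCGCCC is a GC box on the other strand. Vegfa lies at chr17:46032378-46032627 on the minus strand, Flt1 at chr5:147726012-147726261 on the minus strand and Vegfc at chr8:54077282-54077531 on the plus strand.
Vegfa: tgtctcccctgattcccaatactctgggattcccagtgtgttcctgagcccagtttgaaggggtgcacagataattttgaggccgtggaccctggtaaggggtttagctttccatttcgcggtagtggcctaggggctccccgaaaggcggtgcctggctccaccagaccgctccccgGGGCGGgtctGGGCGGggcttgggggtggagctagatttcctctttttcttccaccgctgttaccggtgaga
Flt1: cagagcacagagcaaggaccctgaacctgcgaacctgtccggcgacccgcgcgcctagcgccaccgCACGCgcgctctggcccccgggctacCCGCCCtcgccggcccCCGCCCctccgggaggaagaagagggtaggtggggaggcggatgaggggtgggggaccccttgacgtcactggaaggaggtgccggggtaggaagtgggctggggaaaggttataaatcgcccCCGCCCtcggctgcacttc
Vegfc: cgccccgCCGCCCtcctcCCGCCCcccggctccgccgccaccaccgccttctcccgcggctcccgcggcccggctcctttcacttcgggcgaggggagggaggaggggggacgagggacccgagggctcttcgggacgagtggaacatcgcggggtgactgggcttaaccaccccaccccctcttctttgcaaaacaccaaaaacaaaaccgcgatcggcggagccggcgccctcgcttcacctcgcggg

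The Vegfa window shown held 2 GC boxes and 0 hypoxia cores, the Flt1 window 3 and 1, and the Vegfc window 2 and 0. The window of the second Vegfa start site, not shown because most of it is exonic, held 1 GC box and 2 hypoxia cores. All 9 members had an entry, with 11 windows between them because Vegfa and Pgf have a second start site. A GC box stood in 10 of the 11 windows, and in 32.7% of all 32851 promoter windows of this length. A hypoxia core stood in 7 of the 11, and in 38.6% of all windows. Some of the 11 lie in annotated exons: the second Vegfa window (218 exonic bases), both Pgf windows and the Flt4 window (250 each). The Vegfa, Flt1 and Vegfc windows shown had a GC content of 59.2%, 70.4% and 71.6%, against a median of 52.4% over all windows. These matches describe letters in a short window and show no binding.

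Levels below are CPM, the counts of a gene per 1000000 counts, on TMM-scaled library sizes, which correct for differences in RNA composition. Group means carry the SD (n = 3). A log2 fold change below 0 means a lower level in NM1 KO, and its error is the SE. Total counts per library ranged from 24677758 to 33537818. Myo1c averaged 787 ± 24.4 CPM in the WT libraries and 567 ± 123 CPM without NM1, and its count pools all isoforms, so it does not check the knockout. The adipocyte markers Adipoq and Plin1, which define the tissue, averaged 2132 and 1558 CPM in NM1 KO and more in WT. The labels do not say that replicates are separate animals, so p-values reflect only how far these samples spread, and that spread may be technical.

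**Figure D1:**
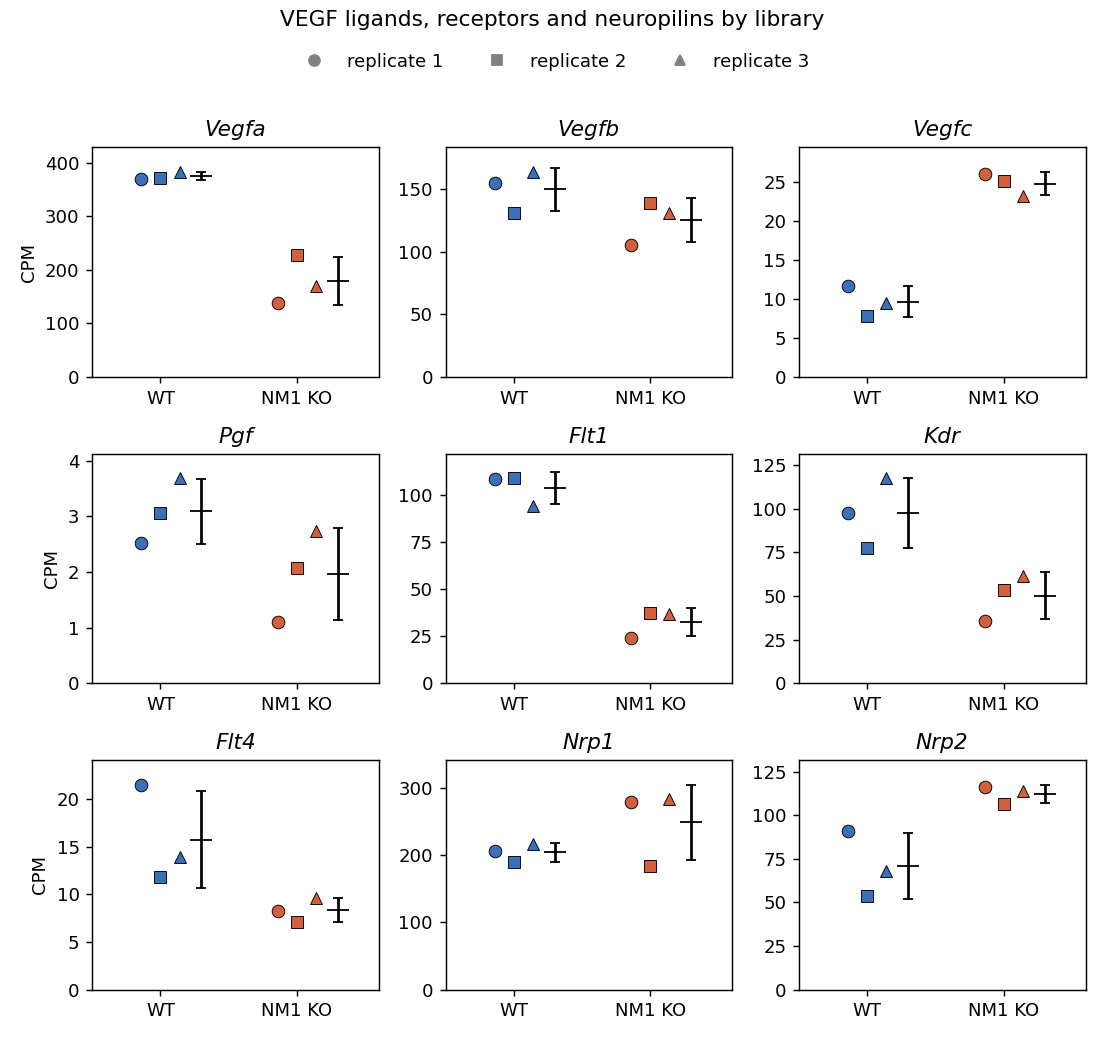
CPM of the 9 VEGF family genes in each library, with WT in blue and NM1 KO in orange. Symbols are replicates, and bars to the right are the mean ± SD (n = 3). Vegfa, Flt1, Kdr and Flt4 are lower in all 3 NM1 KO libraries than in any WT library, and Vegfc and Nrp2 are higher.

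Among the ligands, Vegfa (ENSMUSG00000023951, chromosome 17, 46016993 to 46032369 on GRCm38), the main driver of vessel sprouting, had 369, 372 and 383 CPM in WT (values run from replicate 1 to 3 here and below). It had 139, 227 and 170 CPM in NM1 KO. The WT libraries lay close together, while the NM1 KO libraries were spread, with replicate 2 nearest to WT. This gave a log2 fold change of -1.07 ± 0.18 (adjusted p = 0.0304). Adipocyte markers spread widely in the same libraries, and their part in the Vegfa values was not tested. None of the 15 was called, 12 had a log2 fold change below 0 and the median was -0.30. Adipoq (log2 -0.22, adjusted p = 0.413) and Plin1 (log2 -0.30, adjusted p = 0.342) differed little, while the adipokine genes Cfd (log2 -1.63, adjusted p = 0.0902) and Lep (log2 1.16, adjusted p = 0.0805) lay far from 0 on opposite sides.

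Vegfc (ENSMUSG00000031520, chromosome 8, 54077606 to 54187096), the ligand of lymphatic growth, had 11.7, 7.80 and 9.46 CPM in WT. It had 26.04, 25.1 and 23.1 CPM in NM1 KO. The groups lay far apart, and the NM1 KO libraries were close to each other. The fitted log2 difference of 1.36 ± 0.17 (adjusted p = 0.0186) rested on 236 to 316 counts in WT and 635 to 823 in NM1 KO.

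Vegfb (ENSMUSG00000024962, chromosome 19, 6982473 to 6987651), a ligand of VEGFR1 tied to fatty acid handling, had 155, 131 and 164 CPM in WT and 105, 139 and 131 CPM in NM1 KO. These ranges overlapped. The log2 fold change was -0.26, with a 95% interval of -0.59 to 0.074 and an adjusted p of 0.314. Pgf (ENSMUSG00000004791, chromosome 12, 85166635 to 85177790), which encodes placental growth factor, was the scarcest member, with 34 to 96 counts per library. It had 2.51, 3.07 and 3.69 CPM in WT and 1.09, 2.08 and 2.73 CPM in NM1 KO. The ranges overlapped, and the interval of its log2 fold change, -1.55 to 0.24, leaves a change of either sign possible at this depth. Vegfd, the remaining ligand of the mouse family and not one of the 9, had 69.5, 36.3 and 83.0 CPM in WT and 93.2, 81.3 and 81.5 in NM1 KO (adjusted p = 0.379).

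Among the receptors, Flt1 (ENSMUSG00000029648, chromosome 5, 147561604 to 147726011) had 108, 109 and 93.8 CPM in WT and 24.0, 37.3 and 36.7 CPM in NM1 KO. The highest NM1 KO library stood far below the lowest WT library. On the log2 scale it fell by 1.67 ± 0.18 (adjusted p = 0.0182). The count pools the membrane receptor with its secreted short form, which cannot be separated here.

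Kdr (ENSMUSG00000062960, chromosome 5, 75932827 to 75978458), the main signalling receptor, had 97.7, 77.7 and 118 CPM in WT and 35.4, 53.7 and 61.8 CPM in NM1 KO. The groups did not overlap, but the WT libraries were spread. With a log2 fold change of -0.96 (95% interval -1.51 to -0.40) its adjusted p was 0.0683, so it was not called. DESeq2 (adjusted p = 0.00323), limma-voom (0.0407) and edgeR after removing trends with GC content and gene length (log2 -1.18, adjusted p = 0.0338) did call it. These fits called more genes in general, at 14.1%, 10.1% and 5.05% of all tested genes in either direction, against 4.25% in the main fit.

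Flt4 (ENSMUSG00000020357, chromosome 11, 49609263 to 49652739) had 21.5, 11.8 and 13.9 CPM in WT and 8.21, 7.14 and 9.65 CPM in NM1 KO. WT replicate 1 was high, and the groups did not overlap. The log2 fold change was -0.92 (95% interval -1.51 to -0.32) with an adjusted p of 0.0883. DESeq2, which called 14.1% of all tested genes, called Flt4 (adjusted p = 0.0151). Flt4 was lowest in replicate 2 of each group. Mmrn1, a gene of lymphatic endothelium named after its values were seen, had 4.25, 0 and 3.93 CPM in WT and 11.4, 0.183 and 4.85 CPM in NM1 KO. It was thus lowest in those same libraries, but its log2 fold change was 1.01 (adjusted p = 0.715), opposite in sign to that of Flt4. Other lymphatic markers were looked at after their values were seen. Prox1, Reln, Ccl21a and Tbx1 were also lowest in replicate 2 of each group, while Lyve1 and Pdpn were lowest in replicate 1 of each. The part of lymphatic cells in the Flt4 values was not tested.

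Neither neuropilin was called. Nrp2 (ENSMUSG00000025969, chromosome 1, 62703285 to 62818695), the partner of VEGFR3, had 91.1, 53.8 and 67.9 CPM in WT and 116, 107 and 114 CPM in NM1 KO. The NM1 KO libraries were tight and all above WT, with a log2 fold change of 0.66 (95% interval 0.22 to 1.10) and an adjusted p of 0.0929. DESeq2, with its share of 14.1% of all tested genes, called it (adjusted p = 0.0223). Nrp1 (ENSMUSG00000025810, chromosome 8, 128358604 to 128503363), the partner of VEGFR2, had 206, 190 and 217 CPM in WT and 279, 184 and 283 CPM in NM1 KO. NM1 KO replicate 2 lay below every WT library while the other 2 lay above. Its log2 fold change was 0.29 (adjusted p = 0.370), was -0.05 under the same correction for GC content and length, and was 0.46 with an adjusted p of 0.0462 without NM1 KO replicate 2.

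**Figure D2:**
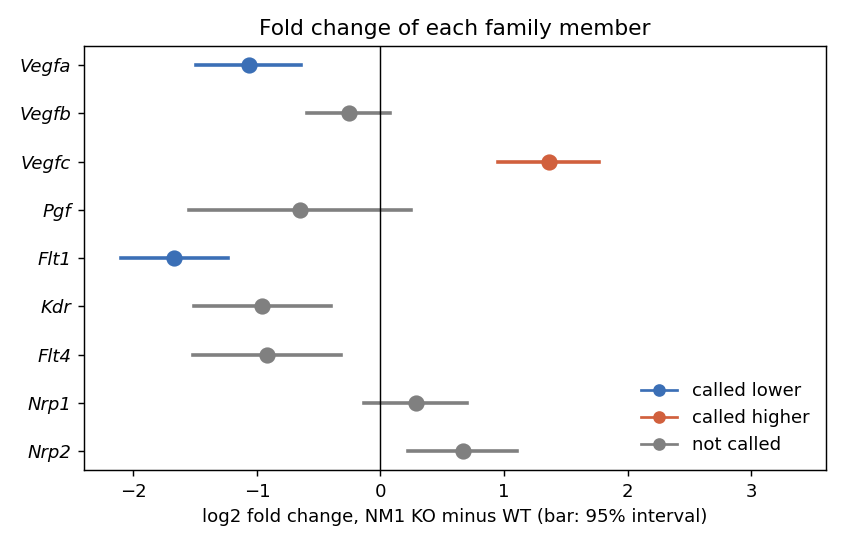
Log2 fold change (NM1 KO minus WT) of each VEGF family gene, with its unadjusted 95% interval. Flt1 (-1.67) and Vegfa (-1.07) were called lower and Vegfc (1.36) higher, and grey marks the 6 members that were not called, among which the intervals of Kdr, Flt4 and Nrp2 do not reach 0.

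Each of the 3 calls was lost without some of the libraries. When 1 library was left out, Flt1 kept a log2 fold change between -1.77 and -1.47, but was no longer called without WT replicate 1 (adjusted p = 0.0535), WT replicate 2 (0.0614), WT replicate 3 (0.0859) or NM1 KO replicate 3 (0.0616). Vegfa stayed between -1.27 and -0.89 and was called only without NM1 KO replicate 2 (adjusted p = 0.0130), with the highest adjusted p, 0.111, without WT replicate 3. Vegfc stayed between 1.23 and 1.52 and lost its call without WT replicate 2 (adjusted p = 0.0614), WT replicate 3 (0.0898) or NM1 KO replicate 3 (0.0644). The number of genes called in all was also low in those fits, at 37, 4 and 1 without WT replicates 1, 2 and 3, and at 5 without NM1 KO replicate 3, against 673 with all libraries.

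Levels of different genes were compared per kilobase of exonic length, in CPM per kb. In WT the order ran from Vegfb (93.4 ± 10.5) and Vegfa (87.4 ± 1.71), whose libraries overlapped, to Nrp1 (20.9 ± 1.40), Kdr (10.8 ± 2.21) and Flt1 (7.68 ± 0.631). Nrp2 (5.99 ± 1.59) overlapped both Flt1 above it and Vegfc (3.94 ± 0.796) below it, and Flt4 (1.91 ± 0.619) and Pgf (1.06 ± 0.202) were lowest. In NM1 KO, Vegfa (41.8 ± 10.5) lay clear below Vegfb (78.03 ± 11.0). Vegfc (10.1 ± 0.605) stood beside Nrp2 (9.49 ± 0.436), and both were above Kdr (5.57 ± 1.49), Flt1 (2.42 ± 0.556), Flt4 (1.01 ± 0.153) and Pgf (0.678 ± 0.284). Exonic length covers all annotated isoforms, so genes with long parts that fat does not use come out too low.

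On this per-length scale the 4 ligands together went from 186 ± 12.1 to 131 ± 20.9 CPM per kb. Vegfa made up 45.8%, 50.2% and 45.4% of that ligand pool in the WT libraries and 29.7%, 35.2% and 30.2% of it in NM1 KO. Vegfc made up 2.54%, 1.84% and 1.97% in WT and 9.75%, 6.803% and 7.17% in NM1 KO, so it remained a small part of the pool. The 3 kinase receptors together went from 20.4 ± 2.00 to 8.9996 ± 2.07 CPM per kb, and the neuropilins from 26.9 ± 2.57 to 34.9 ± 6.14. Flt1 made up 38.0% ± 6.24 of the receptor pool in WT and 26.9% ± 1.81 in NM1 KO, without overlap.

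**Figure D3:**
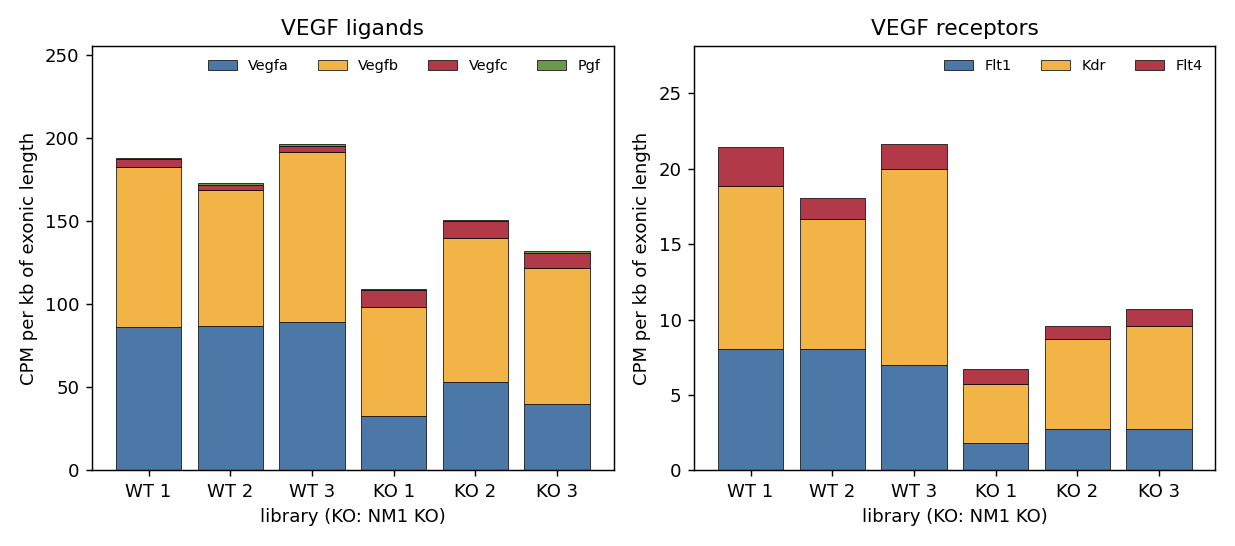
Stacked levels of the 4 VEGF ligands (left) and the 3 kinase receptors (right) in each library, in CPM per kb of exonic length. The NM1 KO bars are shorter in both panels (131 against 186 and 8.9996 against 20.4 on average), and the red Vegfc segment is thicker in NM1 KO.

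Ratios of counts between members within a library do not depend on library scaling. The 6 given here were picked after the levels were seen, so they are a description with no test. The log2 ratio of Vegfc to Vegfa was -5.30 ± 0.300 in WT and -2.82 ± 0.385 in NM1 KO, a shift of 2.47. The log2 ratio of Vegfa to Vegfb went from 1.33 ± 0.154 to 0.49 ± 0.185, and that of Flt1 to Kdr from 0.10 ± 0.407 to -0.61 ± 0.123. The log2 ratio of Vegfc to its receptor gene Flt4 went from -0.68 ± 0.176 to 1.58 ± 0.287. These ratios use raw counts, which grow with gene length, and Flt4 has 8232 exonic bases against 2449 for Vegfc. Per kb, Vegfc already lay above Flt4 in WT (3.94 against 1.91 CPM per kb). Likewise, Vegfb was not below Vegfa per kb in WT (93.4 and 87.4), so only the shifts between groups can be read. Vegfa to Flt1 shifted by 0.60, and Nrp2 to Nrp1 by 0.44 with overlapping libraries.

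The kinase receptors are known as endothelial genes, and markers of vascular endothelium moved with them. Of 20 such markers 14 were called lower (1.47% of all tested genes were), none reached 0 in any library, and the median log2 fold change was -1.23. The 14 were Cdh5, Tie1, Eng, Emcn, Egfl7, Esam, Erg, Robo4, Ptprb, Sox17, Sox18, Mmrn2, Podxl and Gpihbp1, and Pecam1 was not called (198 ± 34.7 against 106 ± 27.6 CPM, adjusted p = 0.0678). Their summed level was 1623 to 2107 CPM in WT and 649.9 to 980 in NM1 KO. In bulk tissue, fewer endothelial cells and less of these RNAs per cell cannot be told apart. This marker list and the others here were chosen with earlier results of these data known.

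Each receptor was therefore also set against the mean log2 level of the 20 markers in the same library, on the log2(CPM + 0.5) scale. Flt1 stood 0.40, 0.69 and 0.55 above the marker mean in WT, and at -0.10, -0.03 and 0.07 in NM1 KO. Its drop was thus larger than that of the marker mean, by 0.57 without overlap (exact two-sided permutation p = 0.1, the smallest possible, and 0.167 adjusted over 5 receptors). Single markers on the list had log2 fold changes close to that of Flt1 (-1.67), such as Robo4 (-1.72), Sox17 (-1.52) and Egfl7 (-1.49), so a drop beyond the marker mean is not particular to Flt1. Kdr stood at 0.44 ± 0.370 in WT and 0.59 ± 0.199 in NM1 KO, with overlap (p = 0.6), and Flt4 at -2.18 ± 0.275 and -1.91 ± 0.387 (p = 0.4), both by the same exact test. Nrp1 went from 1.52 ± 0.216 to 2.89 ± 0.588 and Nrp2 from -0.03 ± 0.253 to 1.77 ± 0.352, without overlap (exact p = 0.1 for each). The marker mean itself changed by -1.11, while Nrp1 had a log2 fold change of 0.29 and Nrp2 of 0.66, neither called. Neuropilins are also made by stromal and myeloid cells, so their ratio to endothelial markers is not a level per endothelial cell.

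**Figure D4:**
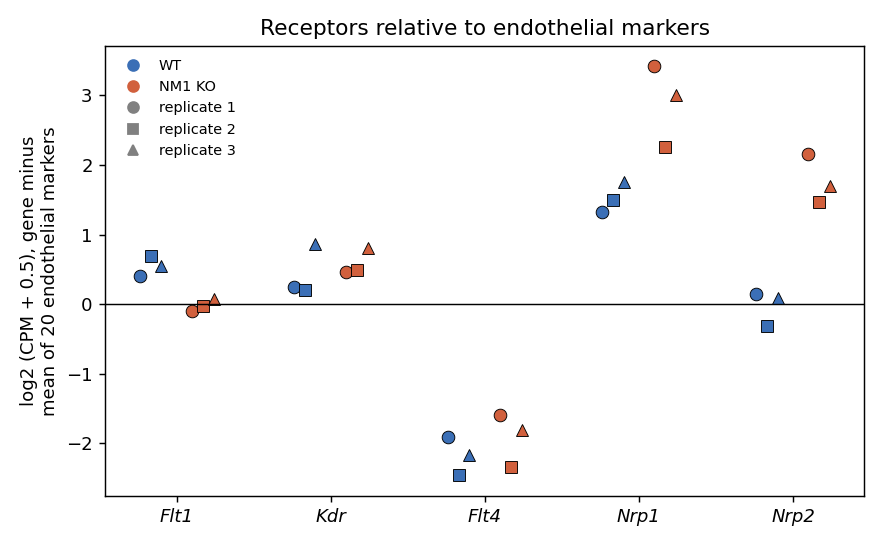
Level of each receptor minus the mean of 20 endothelial markers in the same library, on the log2(CPM + 0.5) scale, with WT in blue and NM1 KO in orange and symbols for replicates. Kdr and Flt4 overlap between groups, Flt1 is lower in NM1 KO by 0.57, and Nrp1 and Nrp2 are higher by 1.37 and 1.80. The marker mean itself changed by -1.11 in NM1 KO.

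Markers of other cells moved beside these genes, and their part in the results was not tested. Of 15 macrophage markers 7 were called higher (2.79% of all tested genes were), among them Adgre1 (96.6 ± 16.0 against 245 ± 36.6 CPM) and Cd68 (118 ± 18.6 against 341 ± 59.9 CPM), and their sum was 7037 to 8146 CPM in WT and 10676 to 16652 in NM1 KO. Of 11 stromal progenitor markers 3 were called higher, Pdgfra, Lum and Prrx1, while 6 of the 11 had a log2 fold change above 0 and 5 below. Sums of the 11 overlapped between groups, at 6015 to 7189 and 6647 to 8824 CPM. Of 7 mesothelial markers 1, Wt1, was called lower, and of 11 pericyte and smooth muscle markers 1, Myh11, was called lower (1.47% of all tested genes were). All 7 mesothelial markers had a log2 fold change below 0 (median -0.90, 3 lower at an unadjusted edgeR p under 0.05). Of the 11 pericyte and smooth muscle markers 10 lay below 0 and 1 above (median -0.63, 7 lower at that p). Mesothelial sums were 686 to 1195 CPM in WT and 511 to 744 in NM1 KO. Those of pericytes and smooth muscle were 873 to 1154 and 613 to 821 CPM, without overlap. None of 15 adipocyte markers was called by edgeR (unadjusted p under 0.05 for 1 higher and 6 lower, DESeq2 1 and 4, limma-voom 0 and 2), with sums of 38733 to 42339 and 34198 to 38002 CPM. Of all tested genes, 23.7% had an unadjusted edgeR p under 0.05, 14.1% were called by DESeq2 and 10.1% by limma-voom, in either direction. Of 7 lymphatic markers 6 could be tested, with 0 calls by edgeR, 1 by DESeq2 and 0 by limma-voom. Lyve1 and Pdpn, both lower, were the 2 with p under 0.05 before adjustment. Of the 6 tested, 4 had a log2 fold change above 0 and 2 below, with a list median of 0.75. All 7 lymphatic markers summed to 235 to 452 CPM in WT and 132 to 233 in NM1 KO. Most of that sum came from Lyve1 (228 ± 87.5 against 87.7 ± 51.8 CPM) and Pdpn (129 ± 73.2 against 67.0 ± 14.5 CPM). Prox1, which defines lymphatic endothelium, had 0.518, 0.192 and 0.962 CPM in WT and 4.02, 0.214 and 0.583 CPM in NM1 KO (adjusted p = 0.431). Its higher mean in NM1 KO (1.61 against 0.557 CPM) rested on replicate 1, and the other NM1 KO libraries lay within the WT range. Mmrn1, Ccl21a and Tbx1 were at 0 in at least 1 library.

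Genes around the family were described by lists, read against 4.25% of all tested genes called in either direction and a median log2 fold change of -0.0021. Of 36 genes of signal transduction below the receptors 1 was called, Prkcb, a protein kinase C also abundant in leukocytes, which rose from 9.24 ± 0.194 to 28.8 ± 15.0 CPM with its highest value, 46.1 CPM, in NM1 KO replicate 1. The median of this list was 0.052, and Nos3, the endothelial nitric oxide synthase, was not called (45.7 ± 8.26 against 27.5 ± 4.44 CPM, adjusted p = 0.0646). Of 24 genes that VEGF induces in cultured endothelial cells 23 could be tested, with a median of -0.17. Pdgfb, which recruits pericytes, was called lower (55.9 ± 4.48 to 32.4 ± 5.51 CPM), and Vcam1, an adhesion molecule also made by other cells, was called higher (24.6 ± 4.44 to 62.5 ± 18.5 CPM). Dll4, the Notch ligand of tip cells, named after its values were seen, had 41.4, 27.6 and 38.6 CPM in WT and 7.18, 19.5 and 17.1 in NM1 KO (log2 -1.30, adjusted p = 0.0906).

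Of 12 class 3 semaphorins and plexins, the partners of neuropilins, 1 was called, with a list median of 0.043. Sema3g, a semaphorin made by endothelium, fell from 76.3 ± 12.0 to 32.7 ± 9.72 CPM, and Plxna1 was not called (log2 0.51, adjusted p = 0.166). Of 17 genes that control Vegfa through oxygen sensing, co-activators or RNA binding, none was called by edgeR (1 higher and 3 lower at an unadjusted p under 0.05, and 1 and 2 by both DESeq2 and limma-voom), with a median of -0.13. Over all tested genes these shares were 23.7% at that unadjusted p, 14.1% by DESeq2 and 10.1% by limma-voom, in either direction. Epas1, which encodes HIF-2α, had 459, 496 and 391 CPM in WT and 245, 321 and 317 in NM1 KO, without overlap (log2 -0.61, adjusted p = 0.0689). Arnt2, a partner of HIF proteins, was at 0.378 ± 0.312 and 2.75 ± 1.01 CPM (adjusted p = 0.0608).

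None of 20 other targets of the hypoxia-inducible factors was called by edgeR (5 higher and 1 lower at an unadjusted p under 0.05, 5 and 1 by DESeq2, 3 and 1 by limma-voom). Their median was 0.14, with 13 above 0 and 7 below. For all tested genes the shares in either direction were 23.7% at that unadjusted p, 14.1% by DESeq2 and 10.1% by limma-voom. Car9, the hypoxia-induced carbonic anhydrase, averaged 0.716 ± 0.0662 CPM against 1.79 ± 0.121 CPM without NM1 (adjusted p = 0.0593), and Kdm3a, a histone demethylase, at 22.7 ± 0.744 and 30.6 ± 0.998 CPM (adjusted p = 0.0616). Of 25 genes of other vascular growth factor systems 2 were called lower and 2 higher, with a median of -0.019. Tie1, an endothelial receptor, and Pdgfb were lower, and Pdgfra, the receptor of stromal progenitors, and Serpinf1, whose product PEDF inhibits angiogenesis, were higher. Tie1, Pdgfb and Pdgfra are the same calls already counted in the endothelial, VEGF-induced and stromal lists. Serpinf1 rose from 182 ± 36.1 to 324 ± 18.1 CPM.

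**Figure D5:**
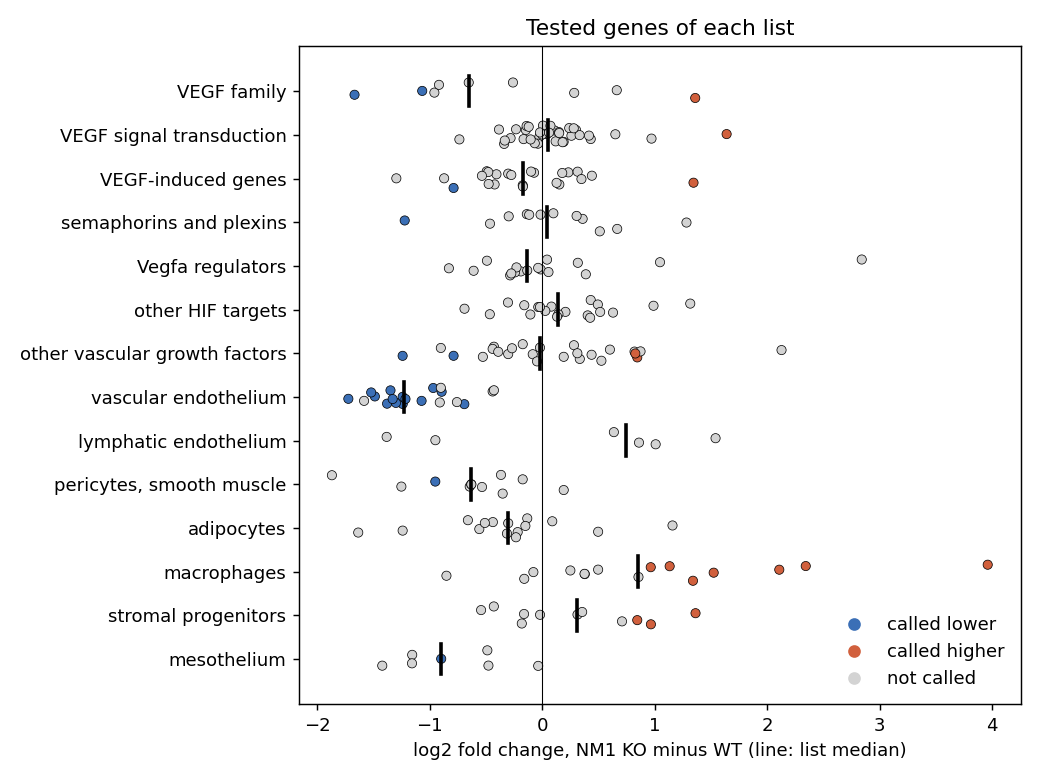
Log2 fold change (NM1 KO minus WT) of every tested gene of each list, with the list median as a black line, genes called lower in blue, higher in orange and others in grey. The VEGF family (median -0.65) has calls on both sides, endothelial markers lie below 0 throughout (median -1.23), and the hypoxia targets have a median of 0.14.

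Genes with the most similar pattern over the 6 libraries were found by the root mean square difference of centred log2 levels among 13931 other genes. The smaller the value, the closer the pattern. For Flt1 these were Rasip1 (0.0851), Tmem88, Tcf15, Egfl7 and Nova2 (0.160), and Egfl7 is also on the endothelial list. For Vegfa they were Slc9a3r2 (0.0690), Unc45b, Sox13, Caskin2 and Gm37090 (0.110), none of them on the adipocyte or endothelial list. Those lists hold only 15 and 20 genes, against 13931 compared, so that absence says little. For Kdr they included Gjc1 (0.0731), Sh3d21, Popdc2 and Ano1 (0.127). For Vegfc, added after its values were seen, they were Slc6a7 (0.0734), the macrophage marker Adgre1 (0.0903), Trim36, Pde4d and Cd33 (0.114), a receptor of myeloid cells. These libraries share 2 genotypes, so any genes that differ alike between the groups come out as similar.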

How the data were processed

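The authors deposited 1 table of raw counts per library, keyed by Ensembl gene identifier. Per the submitters' processing notes, the tools include HISAT2 2.0.4 and HTSeq, the build is GRCm38 (mm10), and Trimmomatic 0.36, SAMtools 0.1.19 and FastQC are also named. The sources used here give no annotation or strand setting. Of 46603 identifiers, 46091 matched GENCODE M21, and 0 entries named no gene. Exons of Nrp1 also hold the microRNA gene Mir1903, and no other member shared exonic bases with another gene. Total counts were 24677758 to 33537818. No 2 libraries of a group agreed within sampling noise (chi-square per degree of freedom of at least 35.9).

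All genes were tested in edgeR 4.0.16 (R 4.3.3) with filterByExpr, TMM, the robust quasi-likelihood fit and a design of genotype alone. Tests were two-sided, and Benjamini-Hochberg adjusted p-values were held to 0.05. SE is the log2 fold change over the square root of F. In a simulation of this comparison (15828 genes, 200 altered), recovery was 51% for 2-fold and 85% for 4-fold changes, and false calls made up 8.11%. Single values were tested with an exact permutation test (scipy 1.17.1). DESeq2 1.42.0, limma-voom (limma 3.58.1), other scalings, filters and dispersions, a replicate block, a GC and length offset (splines with 5 degrees of freedom) and leaving out each library were the alternatives. Figures were drawn with matplotlib 3.10.9.

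The members and lists were chosen with earlier results of these data known. The text names all members, genes called in each list or, with fewer than 2 calls, those with the smallest p up to 2 with a mean of at least 1 CPM, a few defining markers, and the 5 genes most like Vegfa, Flt1 and Kdr. One gene that this rule names is not reported here. Others are named as chosen after their values were seen. Promoter sequences are from RefSeq.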

Additional observations from a re-analysis of the deposited data

How the results depend on the processing

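The count of members called (2 lower and 1 higher of 9) and of all genes called (673) stayed within 1.5 times under the RLE, upper-quartile and library-total scalings, no filter, the filter of 1 CPM in 3 libraries, non-robust dispersion, and the GC and length offset. DESeq2 called 4 members lower, 2 higher and 2239 genes in all, and limma-voom 1605 genes. When 1 library was left out, 0 to 2 members were called lower, 0 to 2 higher, and 1 to 1654 genes in all, with fewer samples in each fit. With the replicate block 1 member was called lower (Vegfa lost its call, adjusted p = 0.0511) and 336 genes in all. Deviations of same-numbered libraries correlated by -0.0600, -0.0354 and 0.188, and those of different-numbered libraries by -0.0975 to 0.112. With 3 libraries per group, these values cannot settle whether the replicate numbers pair the samples. Every member kept the sign of its log2 fold change in each alternative except Nrp1, at -0.0475 with the GC and length offset, and the cause was not tested. The receptors' levels relative to the endothelial markers kept their sign against Pecam1 and Cdh5 alone and when 1 library was left out, where Flt1 lay between -0.64 and -0.49, Kdr between 0.024 and 0.35, Flt4 between 0.11 and 0.48, Nrp1 between 1.11 and 1.69 and Nrp2 between 1.61 and 1.95. Pecam1 and Cdh5 are themselves on the marker list, whose mean changed by -1.11, so they give no independent check. Depth limits Pgf, with 34 to 96 counts per library.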
